A study of Homo sapiens with 6 samples.

Results

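The genes described here are the zinc finger genes of human chromosome 19 whose symbol is ZNF followed by a number, with at most 1 more letter. They were found by that symbol pattern and by their chromosome in a table of read counts, and there were 261 of them among 56303 rows. RNA was sequenced from A549, an established human lung adenocarcinoma cell line. The control group held 3 libraries from cells transfected with a negative-control siRNA, and the other group held 3 libraries from cells transfected with an siRNA against HNRNPD, which encodes the RNA-binding protein AUF1. All 6 libraries share the cell line and the act of transfection, and the labels do not say whether the libraries of a group came from separate cultures. Any p-value below is therefore set against the spread of 3 libraries a group, which may be technical in origin.

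Most ZNF genes of this chromosome encode C2H2 zinc finger proteins, in which repeated fingers, each holding a zinc ion, read DNA sequence. Many also carry a KRAB domain, which recruits TRIM28 (KAP1) and through it histone methylation and heterochromatin proteins, so that the bound DNA is silenced. The genes arose by repeated duplication, lie side by side in clusters, and are best known as repressors of transposable elements. Their mRNAs are usually scarce.

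Of the 261 genes, 246 had a complete coding sequence in GENCODE 29 and the other 15 were annotated as pseudogenes. A finger motif was searched in the encoded proteins as 2 cysteines 2 to 4 residues apart, 12 residues, and 2 histidines 3 to 5 residues apart. The tested genes with a coding sequence had a median of 12 such fingers and a range of 0 to 31. One of 2 short patterns of the KRAB A box was found in 207 of the 246. These patterns miss divergent boxes, so 207 is a lower count. The label was thus borne out by the sequences.

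The libraries held between 37151094 and 43005090 counts. HNRNPD fell 5.62-fold, from 965, 943 and 942 CPM (counts divided by the TMM-scaled library total, in units of 1000000) in the control libraries to 177, 163 and 167 CPM in the siRNA libraries (log2 fold change -2.49, SE 0.06, edgeR adjusted p = 1.38e-15). That decrease matches the labels in all 6 libraries. The line's epithelial markers were present, at a summed 5621 to 6001 CPM over 6 genes in the control and 3589 to 3635 CPM in the siRNA libraries, with 4 of the 6 lower and 1 higher. Of 10 markers of other cell types, 6 were too low to test and HBB had no count, while CD68 and COL1A1 were higher (the call of COL1A1 was lost, with an edgeR adjusted p of up to 0.11, without control replicate 3 or siRNA replicate 1). Their sum rose from between 23.6 and 24.96 CPM to between 79.8 and 160 CPM, mostly from CD68, whose exonic bases overlap another row over a fraction of 0.858. PTPRC, the pan-leukocyte marker, averaged 0.031 CPM in the control libraries and had no count in the siRNA libraries. The part of these markers in the results below was not tested.

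Most tested zinc finger genes of chromosome 19 were higher after HNRNPD siRNA. Of the 179 that had enough counts to be tested, 132 (73.7%) were higher, 5 (2.79%) were lower and 42 were not called, by edgeR's quasi-likelihood test at an adjusted p under 0.05. Over all 20465 genes tested, 28.4% were higher and 27.8% were lower under the same rule, or 56.1% in either direction. The median log2 fold change of the 179 was 0.79, a 1.73-fold rise, with quartiles of 0.40 and 1.04, against 0.01 over all tested genes. No test was made of the list as a whole. The 132 rises ran from 1.18-fold to 5.81-fold, with a median of 1.86-fold. Of them, 51 were at least 2-fold, beside 2079 of the 5803 genes called higher in the whole table. Out of all genes tested, that is 51 of the 179 and 10.2% of the 20465. In each of the 132 (73.7% of the 179) the lowest siRNA library lay above the highest control library. Over all tested genes 27.4% were called higher with no such overlap. That absence of overlap mostly goes with the call, as 5611 of all 5803 genes called higher showed it.

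Summed over all 261 genes, the control libraries held 1472, 1530 and 1465 CPM, and the siRNA libraries held 2278, 2293 and 2383 CPM. Every siRNA library stood above every control library in this sum. ZNF146, the most abundant, supplied part of it, and without it the sums were 1276 to 1336 CPM and 1971 to 2066 CPM. In bulk RNA a change in the share of cells that express a gene and a change in RNA per cell cannot be told apart.

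The shift was seen in each library by itself. For each gene the level was written as log2(CPM + 0.5) minus its mean over the control libraries, and the median was taken over the 179 genes. It was 0.00, 0.03 and -0.02 in control replicates 1 to 3 and 0.61, 0.63 and 0.71 in siRNA replicates 1 to 3. The siRNA libraries thus lay close together and far from the controls. Over all tested genes the same median stayed between -0.002 and 0.016 in the 6 libraries.

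**Figure D1:**
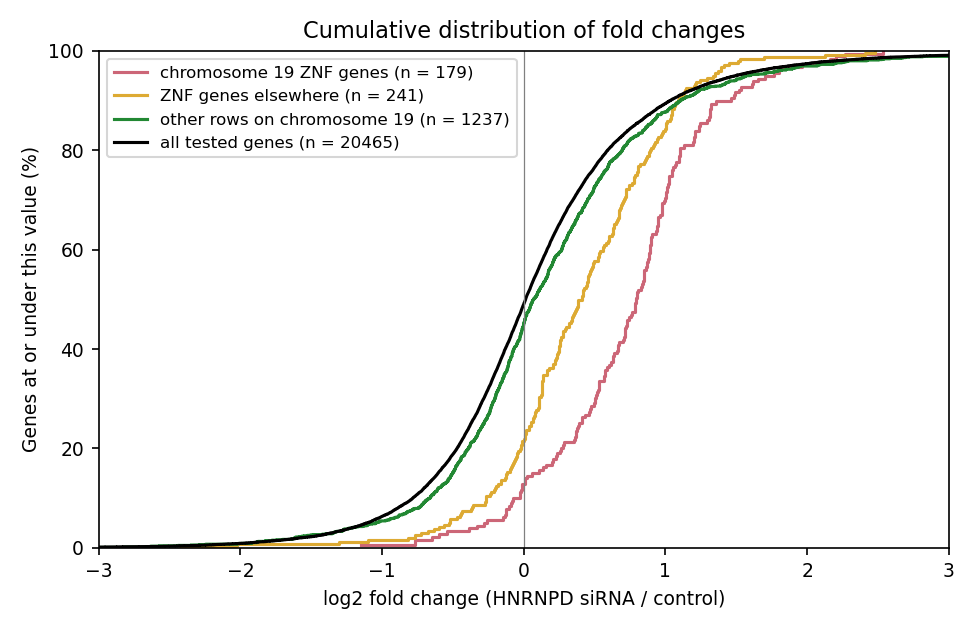
Cumulative share of genes (vertical axis, %) at or under each log2 fold change (horizontal axis, HNRNPD siRNA over control) for the 179 tested chromosome 19 ZNF genes, 241 ZNF genes on other chromosomes, 1237 other rows on chromosome 19 and all 20465 tested genes. The curve of the chromosome 19 ZNF genes lies to the right, with a median of 0.79 against 0.41, 0.07 and 0.01; values beyond 3 in either direction are not drawn.

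The 82 genes that could not be tested were nearly silent. No count was seen in 17 of them in any library, and the other 65 averaged at most 0.242 CPM. Testing required about 0.241 CPM in at least 3 libraries. A gene can pass that limit through its siRNA libraries alone, in which case it had to be higher, and 4 of the 179 were under it in all 3 control libraries (3 of them called higher). Among the 132 genes with at least 1 CPM in every control library, a choice added after the data were seen, 104 were higher, 5 lower and 23 not called, and the median change was 0.76 on the log2 scale. Under that same limit 27.9% of all 15176 genes were higher and 34.7% lower, with a median of -0.05.

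ZNF genes on other chromosomes also rose more often than they fell, with 137 of 241 higher (56.8%), 26 lower (10.8%) and a median of 0.41 (log2). The other rows of chromosome 19, by contrast, were close to all genes, with 391 of 1237 higher (31.6%), 283 lower (22.9%) and a median of 0.07. Protein-coding genes of chromosome 19 outside the ZNF set had a median of -0.00, with 244 of 815 higher and 240 lower. Over all protein-coding genes tested, 29.5% were higher and 33.3% lower. Zinc finger genes of the chromosome that carry other names (ZSCAN, ZIM or ZFP) gave 5 higher of 8 tested, and the lowest log2 fold change among the 8 was 0.19. Among these ZFP28 rose 2.64-fold and ZSCAN5A 2.81-fold. The difference between these groups was not tested, and genes that share sequence and position are not independent observations.

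The largest rise of all, 5.81-fold, was that of ZNF582 (named after its values were seen), at a mean of only 0.438 CPM. The 12 described next had a mean of at least 1 CPM. ZNF616 lies on the minus strand of chr19:52113091-52139922 and encodes a KRAB protein with 21 fingers. Its level was 1.08, 1.31 and 1.26 CPM in the control libraries and 4.84, 5.58 and 6.42 CPM in the siRNA libraries, a 4.61-fold rise (log2 fold change 2.20, SE 0.17, adjusted p = 3.96e-09). All siRNA libraries exceeded the controls by more than the spread within either group. ZNF426, with 11 fingers, went from 0.80, 0.75 and 1.00 CPM to 3.24, 2.84 and 4.47 CPM (log2 fold change 2.05, SE 0.22, adjusted p = 2.94e-07). ZNF543 went from 0.99, 0.98 and 1.00 CPM to 3.41, 2.67 and 4.40 CPM (log2 fold change 1.82, SE 0.21). In both, siRNA replicate 3 was the highest library. The groups do not overlap in any of the 12, because that was a condition of their choice.

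ZNF671, a gene often silenced by promoter methylation in carcinomas, stood at 1.20, 1.12 and 1.10 CPM in the control and 3.55, 3.58 and 4.02 CPM in the siRNA libraries (log2 fold change 1.70, SE 0.18, adjusted p = 1.84e-07). ZNF845, which encodes 26 fingers, stood at 3.62, 4.48 and 3.53 CPM and then 12.04, 10.7 and 13.9 CPM (log2 fold change 1.65, SE 0.13). ZNF606, ZNF266 and ZNF229 rose 2.89-fold, 2.81-fold and 2.80-fold. Of the 12 largest rises the remaining 4 carry counts that may belong in part to other genes. ZNF542P, annotated as a pseudogene, rose 4.81-fold, with other rows covering a fraction of 0.235 of its exonic bases. ZNF177 rose 3.48-fold with a fraction of 0.901 shared with the read-through gene of ZNF559 and ZNF177. ZNF284 rose 2.87-fold with a fraction of 0.439 shared. ZNF585B rose 3.05-fold, and a fraction of 0.348 of its 31-base words also occur in transcripts of other genes.

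Among the most abundant members, compared per kilobase of exon (RPKM, from CPM and the table's gene length), ZNF146 led with a mean of 61.0 RPKM over the 6 libraries. It encodes a protein made almost wholly of 10 fingers, with no KRAB box. Its level rose 1.63-fold, from 193, 194 and 189 CPM to 307, 317 and 317 CPM (log2 fold change 0.71, SE 0.06, adjusted p = 4.01e-09). Next came ZNF580 with 30.1 RPKM and ZNF224 with 15.3 RPKM, followed by ZNF587B with 10.7 and ZNF581 with 8.71 RPKM. ZNF224, known as a repressor of the aldolase A gene, rose 1.99-fold, from 71.0, 74.6 and 72.9 CPM to 150, 136 and 150 CPM (SE of the log2 value 0.06, adjusted p = 1.48e-10). Another row covers a fraction of 0.405 of its exonic bases. ZNF580, ZNF581 and ZNF587B rose by smaller factors, 1.29-fold, 1.33-fold and 1.18-fold, and ZNF580 and ZNF581 overlap each other.

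**Figure D2:**
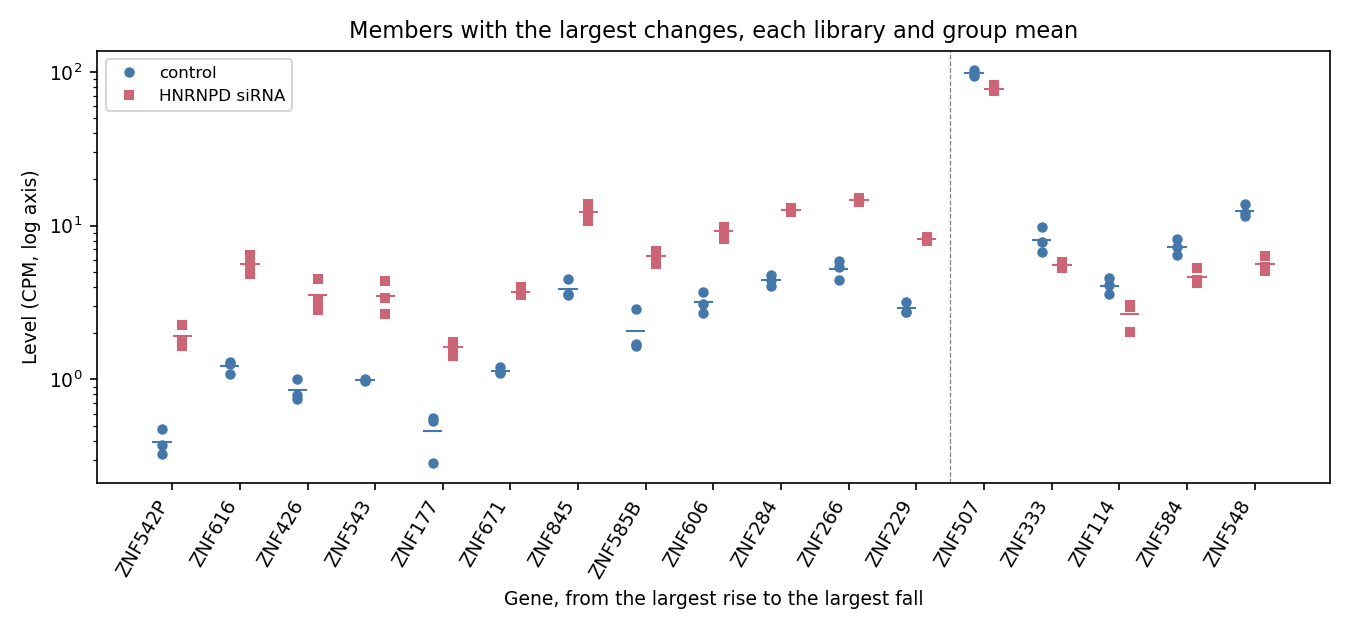
Level in CPM (vertical log axis) of the 12 ZNF genes with the largest rises and the 5 called lower, with circles for the 3 control libraries, squares for the 3 siRNA libraries and bars for group means. In each of the 17 genes the libraries of the groups do not overlap, which was a condition of their choice. The 12 rises start from control means of at most 5.22 CPM.

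Only 5 tested members were called lower, and each kept its call when any 1 library was left out. ZNF548, a KRAB gene with 11 fingers on chr19:57389850-57402992, fell most, from 12.1, 13.8 and 11.6 CPM to 5.08, 5.39 and 6.39 CPM (2.22-fold, log2 fold change -1.15, SE 0.11, adjusted p = 9.53e-08). Some exonic bases of ZNF548 are shared with another row, so its counts may belong in part to another gene. The neighbours of ZNF548 on the chromosome moved the other way. ZNF547, to the left of ZNF548, rose 2.13-fold and ZNF17, to the right, 1.85-fold (both named after their values were seen). ZNF584 fell 1.56-fold, from 6.43, 8.17 and 7.30 CPM to 4.23, 5.30 and 4.45 CPM (log2 fold change -0.64, SE 0.13). The other 3 lie outside the large clusters. ZNF114 fell 1.52-fold, ZNF333 1.45-fold and ZNF507 1.26-fold. ZNF507 is far more abundant than the rest, at 98.0, 102 and 93.6 CPM in the control and 81.9, 76.5 and 75.1 CPM in the siRNA libraries (SE of its log2 fold change 0.06, adjusted p = 0.000149).

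The stretches before the start sites of 3 genes that rose in clusters D and I and of ZNF548, which fell, are shown because all 4 hold the ETS-type core CCGGAAG and the box CCAAT. Each is the 250 bases upstream of the RefSeq start (GRCh38.p14), 5′ to 3′ on the gene's strand, with every match of these motifs, on either strand, in capitals.
ZNF254 (chr19:24086937-24087186, plus strand): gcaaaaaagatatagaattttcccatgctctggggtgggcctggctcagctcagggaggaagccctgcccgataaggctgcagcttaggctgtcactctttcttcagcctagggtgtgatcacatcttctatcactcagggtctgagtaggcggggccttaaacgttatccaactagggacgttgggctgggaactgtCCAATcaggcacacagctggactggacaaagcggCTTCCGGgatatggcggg
ZNF671 (chr19:57727625-57727874, minus strand): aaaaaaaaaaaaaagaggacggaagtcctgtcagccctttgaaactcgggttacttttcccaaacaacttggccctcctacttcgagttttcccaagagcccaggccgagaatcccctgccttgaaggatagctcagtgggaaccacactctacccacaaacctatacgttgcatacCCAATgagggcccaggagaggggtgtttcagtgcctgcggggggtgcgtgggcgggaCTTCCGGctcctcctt
ZNF776 (chr19:57746565-57746814, plus strand): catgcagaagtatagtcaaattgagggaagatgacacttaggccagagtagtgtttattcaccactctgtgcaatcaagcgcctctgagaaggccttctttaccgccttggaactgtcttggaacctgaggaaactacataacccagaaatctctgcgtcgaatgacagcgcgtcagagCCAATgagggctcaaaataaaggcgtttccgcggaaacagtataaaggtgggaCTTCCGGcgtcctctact
ZNF548 (chr19:57389604-57389853, plus strand): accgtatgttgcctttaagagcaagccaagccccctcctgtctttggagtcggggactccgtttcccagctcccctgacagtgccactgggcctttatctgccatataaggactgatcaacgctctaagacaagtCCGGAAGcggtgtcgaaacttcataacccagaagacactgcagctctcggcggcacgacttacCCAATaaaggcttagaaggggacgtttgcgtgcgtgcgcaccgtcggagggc
In ZNF254, ZNF671 and ZNF776 the core begins at positions -18, -16 and -18 from the start site, and in ZNF548 at -115. The same letters are thus present before a gene that fell. The position also varied among genes that rose, as the core begins at -22 in ZNF177, -104 in ZNF567 and -174 in ZNF284. Neither motif was found in these 250 bases of ZNF616, ZNF426 or ZNF224, which also rose. Whether the position of the core goes with the change was not tested.

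A RefSeq promoter of 300 bases (250 before to 50 after the start) was matched by symbol for 213 of the 261 genes. Of 6 motifs searched on both strands, CCGGAAG was in 96 of the 213 (45.1%), against 10.3% of all 35116 promoters in the table. It was in 60 of 118 genes that were higher, 11 of 36 that were tested and not called, 3 of 4 that were lower and 22 of 55 that were not tested. CCAAT was in 53.1% of the 213 against 34.6% of all promoters. It was in 56 of the 118 that were higher, 18 of the 36 not called, 2 of the 4 lower and 37 of the 55 not tested (67.3%), so its share was highest in the genes too low to test. GCCATNTTG, a core read by YY1, was in 5.63% against 2.92% of all promoters, with 10 of the 118 higher, 0 of the 36 not called, 1 of the 4 lower and 1 of the 55 not tested. The core of the NRF1 motif was in 13.1% against 8.32%. It was in 13 of the 118 higher (11.0%), 8 of the 36 not called (22.2%), 0 of the 4 lower and 7 of the 55 not tested. The palindrome of the BANP motif was in 2 of the 213 (0.94%) against 0.42% of all promoters. The repeat of interferon-stimulated response elements was in 1 of the 213 (0.47%) against 3.57% of all promoters. A match is a description of the sequence only. The matched promoters held a median of 20 CpG pairs, against 14 over all promoters.

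Along the chromosome, members were split into clusters wherever the next start was more than 1000000 bases away, and a cluster needed at least 5 members. This gave 9 clusters, named A to I from the short-arm end, that held 249 of the 261 genes. Of the 170 tested genes inside them, 129 (75.9%) were higher and 2, both in cluster I, were lower, and the median was 0.83. In clusters A to H edgeR called 0 of 113 tested genes lower, with 0 lower at an unadjusted p under 0.05, 0 called lower by DESeq2 and 0 by limma-voom. Outside them, 9 of 12 genes could be tested, of which 3 were higher and 3 lower, with a median of -0.08. The higher ones were ZNF546, ZNF780B and ZNF473. ZNF473, whose protein acts in the processing of histone pre-mRNA, rose 1.55-fold, from 5.26, 5.11 and 5.20 CPM to 7.998, 7.28 and 8.94 CPM. ZNF780A, next to ZNF780B, was not called (log2 fold change -0.07, adjusted p = 0.42).

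**Figure D3:**
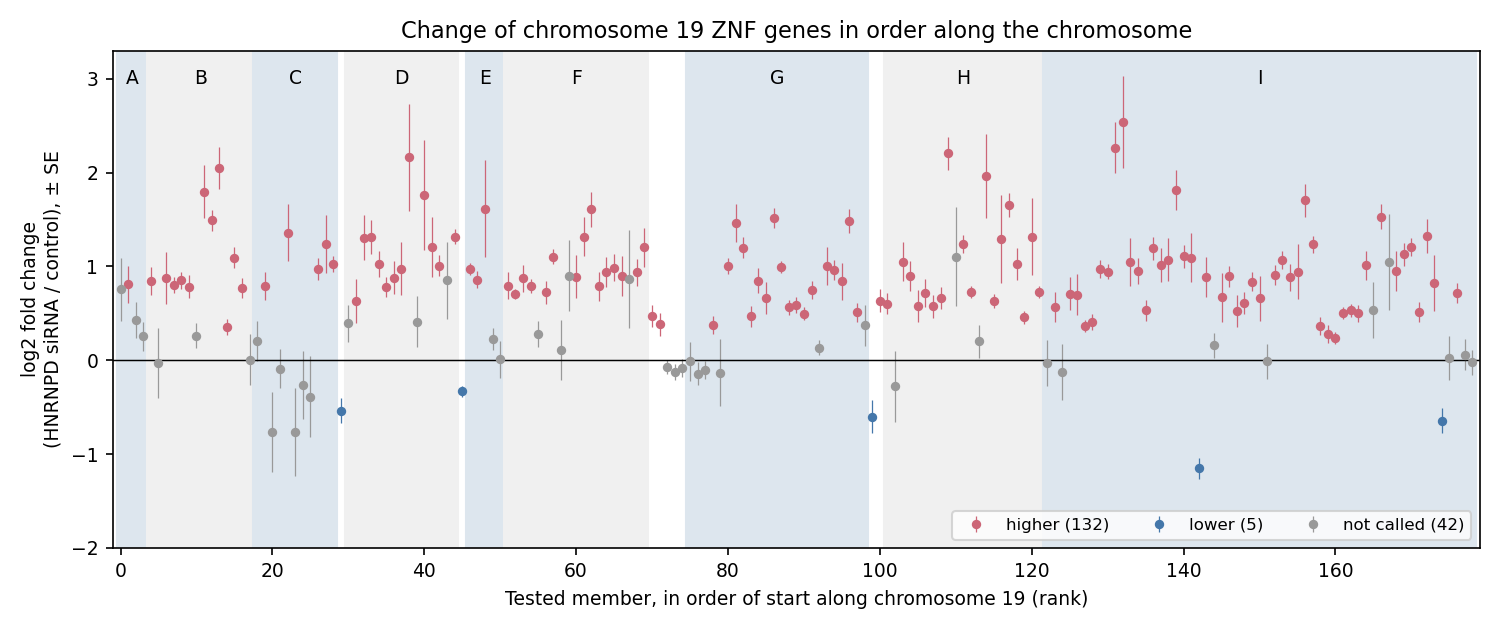
Log2 fold change with its SE (vertical axis) of the 179 tested ZNF genes, ordered by start along chromosome 19 (horizontal axis, rank), with shading for clusters A to I and colour for the call. Of the 132 higher genes, 129 lie in the 9 shaded clusters and 3 in the unshaded gaps, as do 3 of the 5 lower genes.

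Cluster I, near the end of the long arm (chr19:55476332-58481230), is the largest, with 60 genes of which 57 were tested. Of these, 46 were higher and 2 lower, and the median was 0.83 (log2). It holds the longest run of neighbouring tested genes that were all higher, 17 genes from ZNF865 to ZNF547. Its smallest p among rises belonged to ZNF776, at 8.66, 9.57 and 8.51 CPM in the control and 19.1, 21.6 and 22.3 CPM in the siRNA libraries (log2 fold change 1.24, SE 0.09, adjusted p = 1.88e-09). The run ended at ZNF548, which fell.

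Cluster H (chr19:51571298-53580269) had 18 of 21 tested genes higher, with a median of 0.73. ZNF616 had its smallest p, and the imprinted gene ZNF331 (named after its values were seen) rose 1.66-fold, from 29.6, 31.7 and 31.4 CPM to 51.2, 52.6 and 49.7 CPM. The cluster holds 42 genes, so 21 were too low to test.

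Cluster G (chr19:43525497-45076588) had 24 of 25 genes tested, and 18 were higher with a median of 0.63. ZNF224 led it, and 12 tested genes in a row from ZNF45 to ZNF227 were higher. The 3 genes at its left edge, ZNF575, ZNF576 and ZNF428, have no KRAB pattern and log2 fold changes of -0.01, -0.14 and -0.10, none of them called. ZNF235, beside ZNF227, was not called either (log2 fold change 0.13, adjusted p = 0.17), and the genes share exonic bases.

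Cluster F (chr19:36182060-37817300) had 15 of 19 tested genes higher, with a median of 0.89 and quartiles of 0.79 and 0.96. ZNF567 rose 2.15-fold, from 15.4, 14.7 and 14.8 CPM to 31.2, 30.9 and 34.4 CPM (adjusted p = 6.28e-10). Cluster E (chr19:34542462-34964049) is small, with 3 of 5 tested genes higher, led by ZNF302, which rose 1.96-fold from 23.9, 25.3 and 23.5 CPM to 46.6, 47.7 and 48.5 CPM (adjusted p = 5.82e-10). Within that cluster ZNF792, at a log2 fold change of 0.01, was not called.

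Cluster D (chr19:19668796-24129961), which lies next to the centromere and belongs to a primate-expanded family, was mostly silent, with 26 of 41 genes too low to test and 8 of them without a count. The 15 tested genes all had a positive log2 fold change, 12 were higher, and the median was 1.01, against 0.73 in cluster H. That order turned with no filter on low counts (0.95 in D and 0.96 in H) and by DESeq2 (0.99 in D and 1.02 in H). ZNF254 rose 2.50-fold, from 11.2, 11.7 and 10.5 CPM to 29.9, 27.0 and 26.7 CPM (log2 fold change 1.32, SE 0.08, adjusted p = 1.80e-10). ZNF91, a known repressor of SVA retrotransposons with 31 fingers (named after its values were seen), stood at 0.40, 0.42 and 0.52 CPM in the control and 0.71, 1.29 and 1.10 CPM in the siRNA libraries (log2 fold change 1.21, SE 0.32, adjusted p = 0.0037). ZNF93, a repressor of LINE-1 elements in the same cluster, was too low to test.

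Cluster C (chr19:11483427-12640098) had the lowest median of the 9 under the main filter. Only 11 of its 28 genes could be tested, 5 were higher, and the median was 0.20 with quartiles of -0.33 and 1.00. ZNF791 rose 2.04-fold, from 15.7, 18.3 and 14.1 CPM to 31.8, 33.8 and 32.4 CPM (adjusted p = 1.18e-08). The genes not called here included ZNF823 at -0.09 and ZNF44, ZNF799 and ZNF443 at -0.77, -0.26 and -0.39 on the log2 scale, these 3 with means under 1 CPM. The cluster's median moved to between 0.11 and 0.60 when 1 library was left out, and to 0.91 over the 6 genes with at least 1 CPM in 3 libraries.

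Cluster B (chr19:7069444-9793180) had 11 of 14 tested genes higher, with a median of 0.82, and the run from ZNF177 to ZNF562 counted 6. ZNF266 had its smallest p and stood at 4.41, 5.37 and 5.86 CPM in the control and 14.6, 14.3 and 15.04 CPM in the siRNA libraries (adjusted p = 1.88e-09). Cluster A (chr19:2819874-2944971), with 5 genes, had 1 of 4 tested genes higher and a median of 0.59. That gene, ZNF555, rose 1.75-fold, from 1.90, 1.82 and 1.95 CPM to 2.34, 3.39 and 4.197 CPM (adjusted p = 0.00215). Its count of calls depended on single libraries, with 1 to 3 genes called when each was left out in turn.

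**Figure D4:**
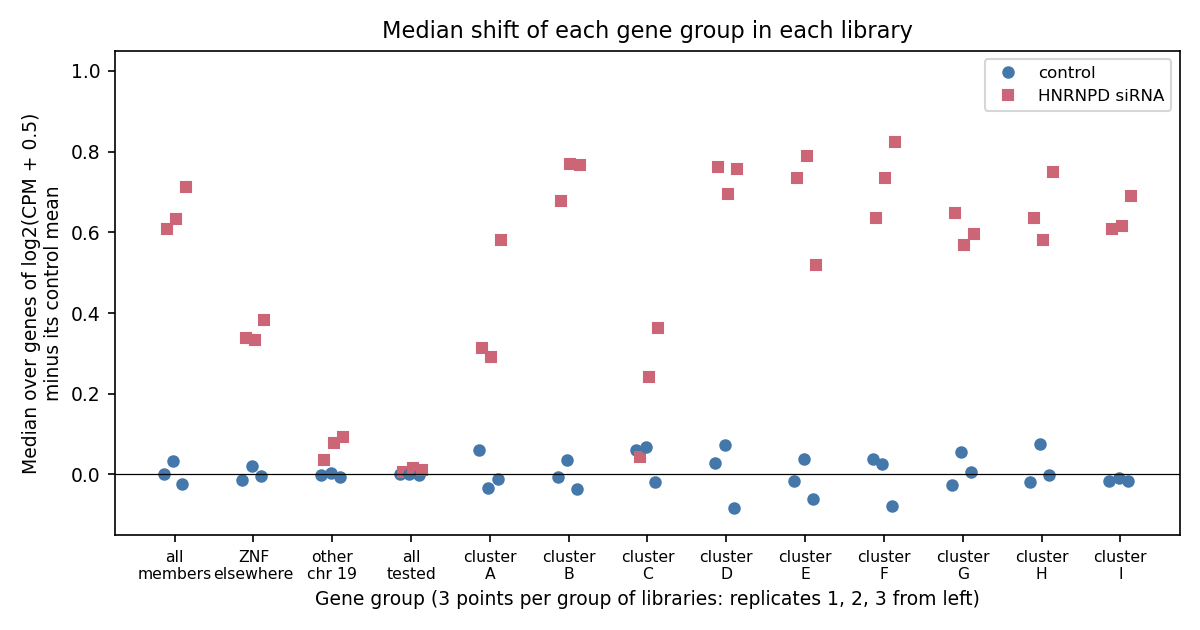
Median over the tested genes of each group of log2(CPM + 0.5) minus its control mean (vertical axis), for each of the 6 libraries, in 4 gene groups and in clusters A to I (horizontal axis). The siRNA libraries lie above the control libraries in every cluster but C, where siRNA replicate 1, at 0.04, falls among the controls.

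Genes within the cluster spans that are not members were counted too. Of 186 tested rows on chromosome 19 that start inside the 9 spans and are not members, 89 were higher (47.8%) and 26 lower, the median being 0.47 on the log2 scale. These rows include the zinc finger genes ZFP14, ZFP82 and ZFP30 in cluster F and ZSCAN5A, ZFP28, ZSCAN18 and ZSCAN22 in cluster I. Of these zinc finger genes, ZFP82 and ZSCAN18 were not called and the others were higher. Rows outside the spans gave 302 higher of 1051 (28.7%), 257 lower and a median of 0.02. Many rows inside the spans overlap a ZNF gene, and whether strand was used in counting is not known. With only rows that share no exonic base with another row, the median was 0.41 inside, with 29 of 60 higher and 6 lower, and 0.002 outside, with 124 of 441 higher and 120 lower. ZFP14, ZFP82, ZFP28 and ZSCAN22 are among the 60. The spans were unlike one another. Cluster I alone supplied 38 of the 89 higher rows (58 tested, median 0.70), and cluster G supplied 18 (38 tested, median 0.31). In cluster B, 12 of 47 inner rows were higher and 12 lower, with a median of -0.07 beside 0.82 for its ZNF genes. Cluster F had 8 of 11 inner rows higher and 0 lower, with a median of 0.86 beside 0.89 for its ZNF genes. Clusters C and H held few tested inner rows, with 2 of 7 and 4 of 12 higher and medians of -0.33 and 0.19. Clusters D, E and A gave 4 of 10, 2 of 2 and 1 of 1 higher, with medians of 0.62, 1.57 and 0.70.

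The genes were also split by the KRAB pattern. With it, 113 of 146 tested genes were higher (77.4%) and 4 lower, at a median of 0.85 (log2), and without it 18 of 31 were higher (58.1%) and 1 lower, with a median of 0.41. The same order was seen on other chromosomes, where ZNF genes with the pattern gave 61 higher of 97, 4 lower and a median of 0.53, and those without gave 71 of 137 higher, 22 lower and a median of 0.27. Genes with 0 to 6 fingers had a median of 0.37 (17 genes), and the medians for 7 to 9, 10 to 12, 13 to 15 and 16 or more fingers lay between 0.73 and 0.85. The 2 splits overlap. The KRAB pattern was in 5 of the 17 genes with 0 to 6 fingers. In the other bins, in order, it was in 28 of 34, 35 of 41, 38 of 41 and 40 of 44. Over 177 genes the log2 fold change had a Spearman correlation of 0.11 with the number of fingers and -0.13 with the mean CPM, given as a description across genes that share sequence and neighbourhood.

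HNRNPD binds AU-rich sequences, so the pentamer ATTTA was counted in the annotated 3′ untranslated regions. It was present in 105 of 131 coding genes that were higher (80.2%), 25 of 41 not called (61.0%) and 3 of 5 that were lower, and in 65.7% of 13619 coding genes tested in the whole table. The regions of the higher genes were longer, with a median of 1452 bases against 504 for those not called. Per 1000 bases the median was 1.81 ATTTA in the higher, 1.99 in the uncalled and 3.65 in the lower genes, against 1.49 over all coding genes. Across genes the log2 fold change had a Spearman correlation of 0.21 with the length of this region (177 genes) and 0.08 with the density of ATTTA (171 genes).

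A list of genes linked to silencing by KRAB proteins, to DNA methylation or to heterochromatin was also counted, called the silencing list here. Not every gene of it encodes a corepressor of KRAB proteins, and the 1 not tested was ZFP57. Of 30 genes of this list, 29 were tested, 7 were higher, 11 were lower, 11 were not called, and the median change was -0.06 (log2). The share called is close to the 56.1% called over all genes (28.4% higher and 27.8% lower), so these counts are no result about the list. TRIM28, the corepressor that binds the KRAB domain, had 99.2, 93.4 and 92.2 CPM in the control and 87.2, 93.9 and 82.7 CPM in the siRNA libraries and was not called (log2 fold change -0.11, adjusted p = 0.15). SETDB1, its histone methyltransferase, rose 1.34-fold, and so did FAM208A (1.42-fold), a subunit of the HUSH silencing complex. Those with the smallest p were all lower. UHRF1, which guides maintenance DNA methylation, fell 2.53-fold, from 101, 104 and 99.7 CPM to 37.8, 43.05 and 39.5 CPM (log2 fold change -1.34, SE 0.06, adjusted p = 5.59e-12). CBX5, which encodes heterochromatin protein HP1 alpha, fell 1.76-fold, TRIM24 1.67-fold and the DNA methyltransferase DNMT3B 1.68-fold.

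Shared sequence limits the counts of single genes but changed the direction of none of the counts of the set. Exonic bases were shared with another row in 104 of the 179 tested genes, with a median fraction of 0.0955 in those. Among the 75 tested genes that share none, 57 were higher and 2 lower, and the median was 0.85 (log2). A fraction of at least 0.25 of the 31-base words occurred in transcripts of other genes for 28 tested genes. Without those, 112 of 151 were higher and 5 lower, with a median of 0.80. The sources used here do not say how reads matching several places were treated.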

How the data were processed

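Raw read counts per gene for 6 libraries were used as the authors deposited them, in 1 table that also gives exon coordinates and gene length. The submitters' processing notes name Bowtie 0.12.2 and 2 genome builds (GRCh38, and mm8 of the mouse) without saying what each served. The program that counted reads and its strand setting were not given in the sources used. Of the 261 genes, 258 matched GENCODE 29 (GRCh38) by name and position and 3 by position. The test was that of edgeR 4.0.16 under R 4.3.3 (quasi-likelihood test, robust, TMM, filterByExpr, group as the only term), fitted on the whole table, with Benjamini-Hochberg adjustment over 20465 genes. The script was checked on simulated counts. Each standard error is the absolute log2 fold change over the root of its F.

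The members and lists were chosen with earlier results of these data known. Named genes are HNRNPD, the 12 largest rises and up to 12 falls (called, mean of at least 1 CPM, no overlap), the smallest p per cluster and direction, the 5 highest by RPKM and the 4 genes of the silencing list with the smallest p. Alternatives were DESeq2 1.42.0, limma 3.58.1 (voom), other scalings and filters, counts divided by 2, a replicate block, each library left out, and cluster gaps of 500000 and 2000000 bases. Coding sequences and transcripts came from GENCODE 29, promoters from RefSeq (GRCh38.p14).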

Additional observations from a re-analysis of the deposited data

How the results depend on the processing

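The count of higher members was 123 to 134 and that of lower members 5 or 6 under the alternatives fitted on all members, with medians of 0.74 to 0.82. Every one of the 28 named members, HNRNPD and the 4 genes named from the silencing list kept its direction and its call wherever it was tested. Of the 132 rises, 13 lost their call when some 1 library was left out (such as ZNF14, ZNF552 and ZNF780B). The choices of members with at least 1 CPM in every control library and of those with few shared words were added after seeing the data. Restricting the set to genes with no exon overlap gave 57 higher, 2 lower and a median of 0.85, as fewer members remain. The labels do not say whether replicate numbers pair the libraries. Deviations from the group means correlated at 0.03, 0.02 and 0.01 between same-numbered libraries and at -0.04 to 0.02 between the others. Such small values, from 3 libraries a group, cannot settle the question. The replicate block gave 133 higher and 5 lower. Clusters with few or scarce genes moved most. In cluster A, 2 genes were higher with library totals, no filter, DESeq2, limma-voom and the replicate block, and 3 under the limit of at least 1 CPM or with all counts divided by 2. With libraries left out in turn its count ran from 1 to 3 and its median from 0.44 to 0.82. The median of cluster C was 0.86 with no filter, 0.91 with at least 1 CPM, 0.76 by DESeq2 and 0.80 with counts divided by 2. No filter gave medians of 0.95 in cluster D, 0.52 in E, 0.57 in G and 0.96 in H. At least 1 CPM gave 0.57 in E, 0.69 in G and 0.74 in I. DESeq2 gave 0.57 in G, 1.02 in H and 0.76 in I, and counts divided by 2 gave 0.72 in I. With libraries left out in turn the medians ran from 0.11 to 0.60 in C, 0.94 to 1.12 in D, 0.75 to 0.94 in F, 0.55 to 0.70 in G, 0.75 to 0.98 in H and 0.75 to 0.82 in I. A gap of 2000000 bases joins neighbours, so C counts 16 higher with a median of 0.79, E 18 higher, G a median of 0.51, H 65 higher and 3 lower, and I a median of 0.73. The cause of the other moves was not tested. The scarce genes, at a few counts per library, limit what can be seen.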
